A study of Arabidopsis thaliana with 23 samples.

Results

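The growth-regulating factors GRF1 to GRF9 and their co-activator GIF1 (also AN3) were followed in RNA-seq of Arabidopsis thaliana. They were taken by their 10 locus identifiers, which all stood in both count tables, 10 of 32224 genes in the seedling table and of 32833 in the axillary table. All 10 passed the filter on low counts in both tables. The rule that picks them uses no measured value, but they were chosen with earlier results of these data known.

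All plants were of the Col-0 background. Seedlings of the rac-GR24 group had grown for 7 days on 2.5 µM rac-GR24, a synthetic strigolactone analogue, and DMSO seedlings on its solvent. Axillary tissue, the bud with the rosette leaf axil under it, came from wild-type (WT) plants whose main shoot had been cut below the lowest cauline node (decapitated WT), from intact plants of the mutant brc1-2, and from intact WT plants. Each of the 5 groups had 3 libraries, 15 of the 23 samples of the series, and H3K27me3 CUT&Tag samples were not analysed here. The sources used here give neither the lesion in brc1-2, the time between decapitation and harvest, the age of the plants, nor how many plants were pooled. Separate cultures or plants behind each library are not stated, so the p-values speak only of library-to-library spread, and that spread may be technical.

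On the TAIR10 assembly, per the deposited annotation, 4 of the genes lie on chromosome 2. They are GRF1 (AT2G22840, 9728480 to 9731301, plus strand), GRF3 (AT2G36400, 15270088 to 15273115, minus strand), GRF6 (AT2G06200, 2426176 to 2427355, plus strand) and GRF9 (AT2G45480). GRF4 (AT3G52910, 19615977 to 19618507, minus strand) and GRF5 (AT3G13960, 4608076 to 4610497, plus strand) lie on chromosome 3. GRF2 (AT4G37740, 17725337 to 17727909, minus strand) and GRF8 (AT4G24150, 12535972 to 12539576, plus strand) lie on chromosome 4. GRF7 (AT5G53660) and GIF1 (AT5G28640, 10647467 to 10650066, minus strand) lie on chromosome 5. Values are sums over all exons of a gene, so isoforms are not told apart.

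GRF proteins are plant transcription factors that keep cells of young organs dividing. They bind DNA through a WRC domain and bind GIF co-activators through a QLQ domain, and GIF proteins bring SWI/SNF chromatin remodelers to their targets. The microRNA miR396 cleaves the transcripts of most Arabidopsis GRF genes, GRF5 and GRF6 being the ones without its site. BRC1, the gene named by the mutant, encodes a TCP factor that holds axillary buds dormant.

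Seedling libraries held 31209344 to 44442493 counts in total and axillary libraries 47462342 to 61228766. BRC1 itself followed the labels, with 2, 4 and 2 counts in brc1-2 libraries, against 392, 373 and 423 in intact WT libraries. It also moved in the other comparisons, with 95, 99 and 77 counts in decapitated WT libraries (log2 change -2.12 ± 0.15 against intact WT; edgeR adjusted p = 5.7e-13), and with 279, 140 and 94 counts on rac-GR24, against 0, 0 and 2 counts on DMSO. Markers of the axil boundary and meristem summed to 50.2 to 57.5 CPM (counts scaled to a common library size) over the axillary libraries, against 7.84 to 11.7 CPM over the seedling libraries, with WUS at 0 in every seedling library. STM carried most of that sum, with 46.3 CPM in intact WT axils on average and 4.11 CPM in DMSO seedlings. LAS was not higher in axils, at 0.871 CPM in intact WT and 1.91 CPM in DMSO seedlings, and RAX1 stood at 1.24 CPM in intact WT and 1.19 CPM in DMSO seedlings. The 2 brc1-2 columns that carried the same replicate number are called 2a and 2b.

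Genes can be set against each other only per unit of transcript length, so levels are given first as TPM, which corrects counts for exon length and library size. The GRF pool was made mostly by GRF1 to GRF5. In intact WT axils the 9 GRF genes summed to 120 ± 2.3 TPM (SD, n = 3), of which GRF1 to GRF5 held 83.0%. In DMSO seedlings they summed to 70.7 ± 3.6 TPM (SD, n = 3), of which GRF1 to GRF5 held 84.8%. GRF4 was the highest GRF gene in all 3 axillary groups and GRF3 in both seedling groups, in each case without overlap of libraries with the next GRF gene.

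GRF4 reached 45.4 ± 0.65 TPM in decapitated WT, 38.8 ± 1.2 TPM in brc1-2 and 33.0 ± 1.2 TPM in intact WT (SD, n = 3 each). GRF3 stood at 13.6 ± 1.2 TPM on rac-GR24 and 21.6 ± 0.070 TPM on DMSO (SD, n = 3 each). GRF1 and GRF3 overlapped in every axillary group, at 21.9 and 22.8 TPM in brc1-2. Below them came GRF5 at 15.1 TPM, GRF2 at 11.7 TPM and GRF9 at 7.10 TPM in intact WT, then GRF7 at 5.93 TPM, GRF6 at 4.20 TPM and GRF8 at 3.26 TPM. In that group only GRF1 and GRF3 overlapped as neighbours in the order.

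**Figure D1:**
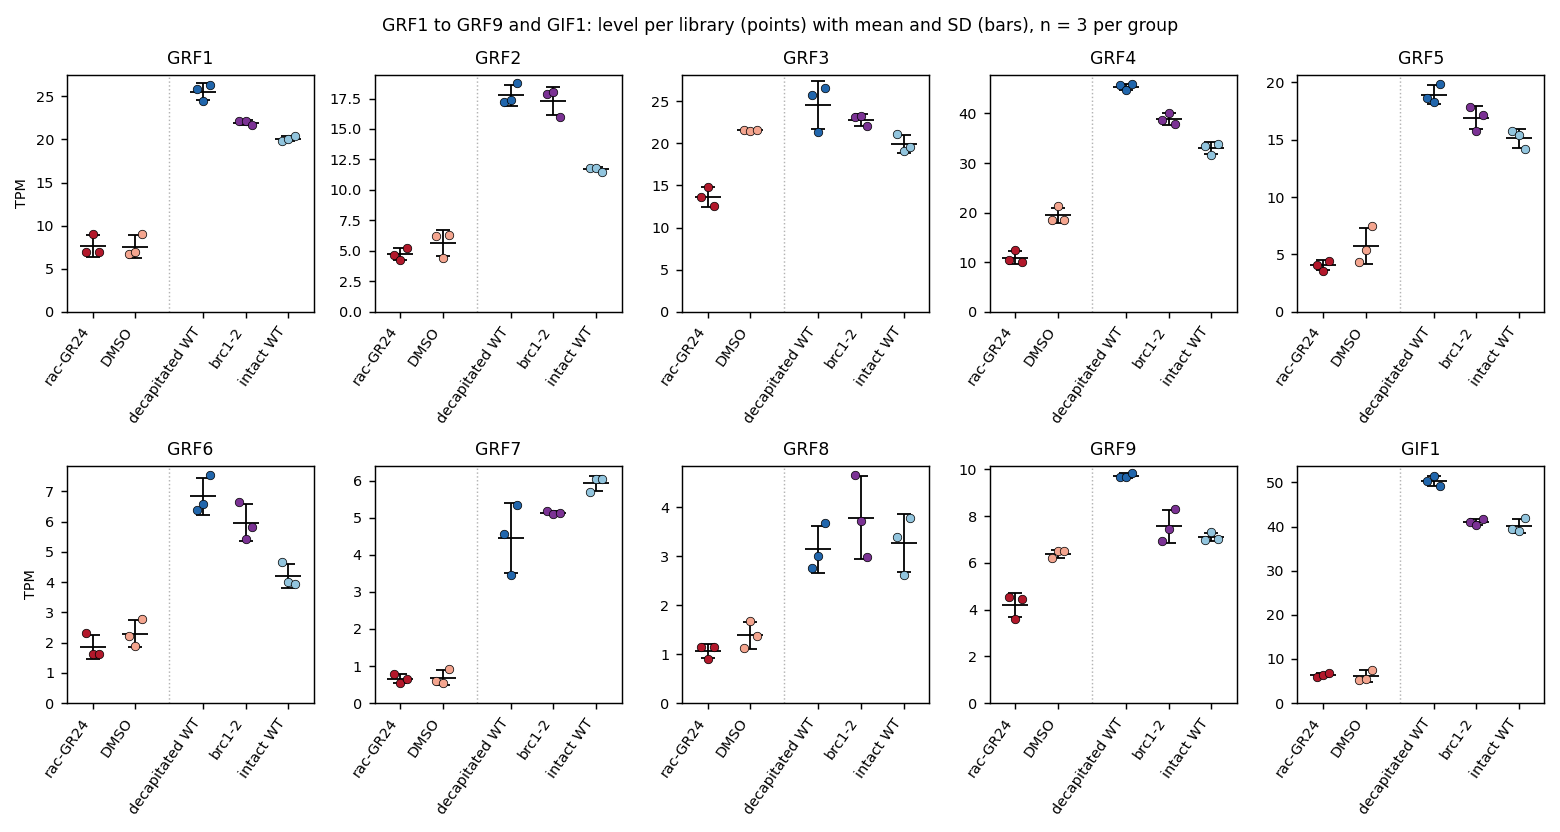
Level of each gene in TPM (vertical axis, from 0) in the 5 groups, seedlings left and axillary tissue right of the dotted line; points are libraries and bars the mean with SD, n = 3. GIF1 lies between 39.0 and 51.4 TPM in the axillary libraries and between 5.15 and 7.59 TPM in the seedling libraries, while GRF3 in DMSO seedlings lies within the axillary range.

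GIF1 was the gene with the highest level of the 10 in axillary tissue, but not in seedlings. It had 40.1 ± 1.6 TPM in intact WT axils and 6.06 ± 1.3 TPM in DMSO seedlings (SD, n = 3 each), a ratio of 6.62. GRF7, known as a repressor of the osmotic stress gene DREB2A, had 5.93 TPM in intact WT axils and 0.686 TPM in DMSO seedlings, a ratio of 8.64. GRF1 (2.67), GRF5 (2.64), GRF8 (2.35), GRF2 (2.07), GRF6 (1.83), GRF4 (1.70) and GRF9 (1.11) were also higher per length in intact WT axils by these ratios, and GRF3 was lower at 0.924. No gene of the 10 overlapped between these groups, but the share of all genes without overlap was not computed. The count therefore has no background to be read against. Tissue and batch label differ together here, so the sources cannot be told apart, and no test was made.

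The order of the 5 groups was decapitated WT, brc1-2, intact WT and then seedlings for GRF1, GRF2, GRF4, GRF5, GRF6, GRF9 and GIF1. Within that order decapitated WT and brc1-2 overlapped for GRF2 and GRF6, and brc1-2 and intact WT for GRF9 and GIF1. GRF3 differed in that DMSO seedlings stood above intact WT. GRF7 ran the other way among axils, with 4.45 TPM in decapitated WT and 5.14 TPM in brc1-2, which overlapped, against 5.93 TPM in intact WT. The 3 axillary groups overlapped for GRF8.

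**Figure D2:**
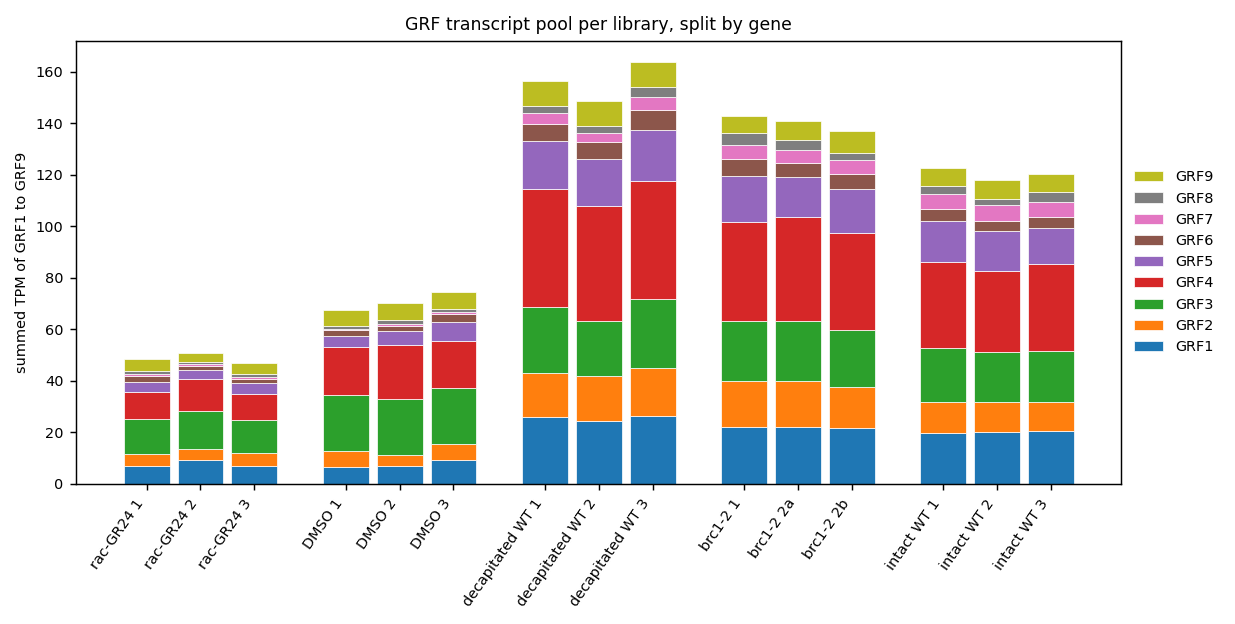
Summed TPM of GRF1 to GRF9 (vertical axis, from 0) in each of the 15 libraries, split by gene. The sum runs from 47.0 to 50.9 TPM on rac-GR24, against 67.4 to 74.5 TPM on DMSO, and from 149 to 164 TPM in decapitated WT and 137 to 143 TPM in brc1-2, against 118 to 123 TPM in intact WT.

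The summed level of the 9 GRF genes did not overlap between groups. It reached 48.8 ± 2.0 TPM on rac-GR24 and 70.7 ± 3.6 TPM on DMSO (SD, n = 3 each). It reached 156 ± 7.5 TPM in decapitated WT, 140 ± 3.1 TPM in brc1-2 and 120 ± 2.3 TPM in intact WT (SD, n = 3 each). GRF5 and GRF6, the genes without a miR396 site, made 16.5% of the pool in decapitated WT, 16.3% in brc1-2 and 16.1% in intact WT. GRF1 took 15.6 ± 1.9% of the pool on rac-GR24 and 10.6 ± 1.3% on DMSO (SD, n = 3 each), and GRF4 took 22.4 ± 1.7% on rac-GR24 and 27.6 ± 2.8% on DMSO. GRF7 took 2.83 ± 0.47% of the pool in decapitated WT, 3.67 ± 0.077% in brc1-2 and 4.93 ± 0.25% in intact WT (SD, n = 3 each). GIF1 stood at 0.323 of the GRF sum in decapitated WT, 0.293 in brc1-2 and 0.334 in intact WT, and at 0.132 on rac-GR24 and 0.0853 on DMSO.

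The first comparison asks how the family responds to rac-GR24 in seedlings. GRF3, GRF4, GRF5 and GRF9 fell, and no member rose. These 4 of 10 stand against 11.7% of all 21063 genes tested that fell. The count of members that rose was 0 by edgeR, DESeq2 and limma-voom, against 12.4% of all genes by edgeR at an adjusted p under 0.05. It was also 0 in each at an unadjusted p under 0.05. The median log2 change of the 10 genes was -0.38, against -0.0017 over all genes tested. In 5 of 10 genes every rac-GR24 library lay below every DMSO library, against 19.5% of all genes, and in no member was every one higher, against 19.4%. These 5 were the 4 genes that fell and GRF8, which did not pass. In TPM the groups overlapped for GRF5 and GRF8. Library values are CPM scaled by trimmed mean of M-values (TMM), in replicate order.

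GRF4, a promoter of leaf cell proliferation, had 9.78, 12.1 and 9.80 CPM on rac-GR24, against 18.9, 21.0 and 17.9 CPM on DMSO. Every rac-GR24 library lay below every DMSO library (log2 change -0.86 ± 0.11, SE, n = 3 per group; edgeR quasi-likelihood adjusted p = 3.5e-05). GRF3, which acts redundantly with GRF1 and GRF2 in leaf growth, had 15.5, 17.5 and 14.7 CPM on rac-GR24, against 26.6, 25.6 and 25.2 CPM on DMSO. These groups did not overlap either (-0.70 ± 0.084; edgeR adjusted p = 3e-05). Each SE is the absolute log2 change divided by the root of the F statistic.

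GRF9, described as limiting leaf cell number, had 5.27, 4.34 and 5.34 CPM on rac-GR24, against 7.78, 7.90 and 7.74 CPM on DMSO. The DMSO libraries lay close together and above all rac-GR24 libraries (-0.65 ± 0.13; edgeR adjusted p = 0.0023). GRF5, whose overexpression enlarges leaves, had 4.87, 4.39 and 5.43 CPM on rac-GR24, against 5.57, 6.67 and 9.04 CPM on DMSO. The groups did not overlap in CPM but did in TPM, and 1 DMSO library stood well above the others (-0.55 ± 0.17; edgeR adjusted p = 0.035). The call on GRF5 was lost when replicate 1 or 2 of rac-GR24 was left out, or when replicate 2 or 3 of DMSO was, with adjusted p from 0.0088 to 0.19 over the 6 fits that leave out a library, and the log2 change was -0.32 without DMSO replicate 3.

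GRF1 did not pass, with 8.74, 11.8 and 9.01 CPM on rac-GR24, against 9.10, 9.09 and 11.7 CPM on DMSO. In each group 1 library was high, and the 95% interval of the log2 change ran from -0.32 to 0.28. GIF1 had 8.60, 9.67 and 10.3 CPM on rac-GR24, against 8.08, 8.25 and 11.3 CPM on DMSO. Its groups overlapped, and the interval ran from -0.25 to 0.33 around a log2 change of 0.04. GRF2 (-0.30), GRF6 (-0.35), GRF7 (-0.11) and GRF8 (-0.42) did not pass, with intervals that all included 0. GRF2 passed without DMSO replicate 2 (-0.45; edgeR adjusted p = 0.043, from 0.043 to 0.44 over the 6 fits that leave out a library). GRF7 held 18 to 44 counts per seedling library, so its interval was wide, from -0.90 to 0.68. Markers of dividing cells fell in 7 of 10 cases, and summed to 121 to 129 CPM over rac-GR24 libraries, against 160 to 193 CPM over DMSO libraries. Root markers rose in 5 of 6 cases, with sums of 4801 to 5129 CPM on rac-GR24, against 2761 to 3065 CPM on DMSO. PYK10 made nearly all of these sums, with 4922.5 CPM on rac-GR24 and 2858.5 CPM on DMSO on average. Green leaf markers fell in 3 of 8 cases, with sums of 35579 to 37809 CPM on rac-GR24, against 38214 to 44652 CPM on DMSO, and secondary wall markers in 2 of 6, with sums of 60.6 to 63.4 CPM on rac-GR24, against 73.4 to 80.8 CPM on DMSO. The part of these lists in the lower GRF values was not tested, and in bulk tissue fewer cells of a type and less RNA per cell cannot be told apart.

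The second comparison asks what loss of BRC1 changes in axils. GRF2, GRF3, GRF4, GRF5 and GRF6 rose in brc1-2, and no member fell. These 5 of 10 stand against 30.4% of all 21539 genes tested that rose. The count that fell was 0 by edgeR, DESeq2 and limma-voom, against 30.5% of all genes. At an unadjusted p under 0.05 it was 0 by edgeR and DESeq2 and 1 by limma-voom. The median log2 change of the 10 genes was 0.15, against 0.0043 over all genes tested. In 5 genes every brc1-2 library lay above every intact WT library, against 33.2% of all genes, and in 1, GRF7, every one lay below, against 32.6%.

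GRF2 moved most. It had 24.3, 24.6 and 21.8 CPM in brc1-2, against 16.4, 16.4 and 15.9 CPM in intact WT, without overlap (log2 change 0.54 ± 0.058; edgeR adjusted p = 4.9e-09). GRF6, a relative of GRF5 without a miR396 site, had 4.68, 3.85 and 4.13 CPM in brc1-2, against 3.37, 2.90 and 2.82 CPM in intact WT. Its brc1-2 libraries also lay above all intact WT libraries (0.48 ± 0.13; edgeR adjusted p = 0.0027).

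GRF4 had 39.5, 41.2 and 38.8 CPM in brc1-2, against 35.1, 33.0 and 35.1 CPM in intact WT. The difference was small but without overlap (0.21 ± 0.045; edgeR adjusted p = 2e-04). GRF3 had 28.4, 28.8 and 27.2 CPM in brc1-2, against 26.6, 24.1 and 24.5 CPM in intact WT (0.17 ± 0.061; edgeR adjusted p = 0.018). GRF5 had 22.8, 20.3 and 22.1 CPM in brc1-2, against 20.7, 20.2 and 18.5 CPM in intact WT, with overlap in CPM but not in TPM (0.14 ± 0.059; edgeR adjusted p = 0.046). The calls on GRF3 and GRF5 each ended in 4 of the 6 fits that leave out 1 library, at adjusted p from 0.0099 to 0.092 for GRF3 and from 0.017 to 0.25 for GRF5. Without intact WT replicate 2, intact WT replicate 3 or brc1-2 replicate 1 both were lost and 3 members rose. The call on GRF3 also ended without brc1-2 replicate 2a, and that on GRF5 without brc1-2 replicate 2b.

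GIF1 had 64.4, 63.6 and 65.7 CPM in brc1-2, against 63.3, 62.6 and 66.9 CPM in intact WT. The groups overlapped, and the 95% interval of its log2 change ran from -0.07 to 0.09. GRF1 had 30.2, 30.3 and 29.7 CPM in brc1-2, against 27.6, 28.1 and 28.4 CPM in intact WT. It did not pass although the libraries did not overlap (0.10 ± 0.047; edgeR adjusted p = 0.064), and it passed with DESeq2 size factors, in DESeq2 and with a stricter filter, at adjusted p from 0.039 to 0.13 over 8 settings. GRF7 had 5.76, 5.70 and 5.74 CPM in brc1-2, against 6.49, 6.86 and 6.82 CPM in intact WT, and did not pass (-0.23 ± 0.12; edgeR adjusted p = 0.089). GRF8 (0.18) and GRF9 (0.07) overlapped and did not pass. Markers of dividing cells rose in 9 of 10 cases, with sums of 334 to 347 CPM in brc1-2, against 224 to 231 CPM in intact WT. Flower markers rose in 8 of 8 cases, with sums of 69.8 to 72.5 CPM in brc1-2, against 35.1 to 36.2 CPM in intact WT. Green leaf markers rose in 7 of 8 cases, with sums of 35589 to 35930 CPM in brc1-2, against 28439 to 28669 CPM in intact WT. The part of these lists in the GRF values was not tested.

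**Figure D3:**
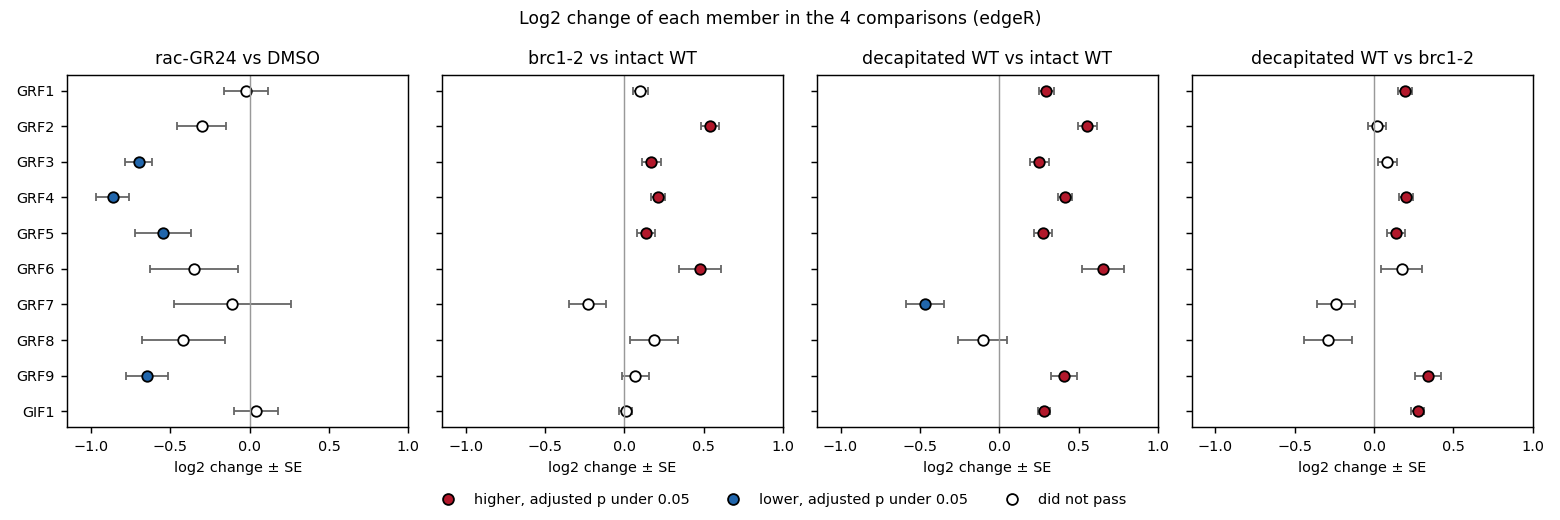
Log2 change with SE (horizontal axis) of each gene in the 4 comparisons, n = 3 libraries per group; red circles passed as higher, blue as lower and open circles did not pass at an edgeR adjusted p under 0.05. GRF4 lies at -0.86 on rac-GR24, 0.21 in brc1-2 and 0.41 after decapitation, and GRF7 is the gene at -0.47 after decapitation.

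Decapitated WT axils were then set against intact WT axils, which addresses the response to loss of the shoot tip. GIF1 and 7 of the 9 GRF genes rose, GRF7 fell and GRF8 did not pass. The 8 of 10 that rose stand against 29.4% of all 21539 genes tested, and the 1 that fell against 33.5%. The median log2 change of the 10 genes was 0.29, against -0.03 over all genes tested. In 7 genes every decapitated WT library lay above every intact WT library, against 30.7% of all genes, and in GRF7 every one lay below, against 35.2%. The largest rise among them was 1.57-fold, for GRF6. This comparison shares its intact WT libraries with the one on brc1-2, so their values stand side by side and are not independent.

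GRF6 had 4.50, 4.65 and 5.12 CPM after decapitation, against 3.37, 2.90 and 2.82 CPM in intact WT, without overlap (0.65 ± 0.13; edgeR adjusted p = 9.4e-05). GRF2 had 23.4, 23.6 and 24.5 CPM after decapitation, against 16.4, 16.4 and 15.9 CPM in intact WT (0.56 ± 0.058; edgeR adjusted p = 2.4e-09). The lowest decapitated WT library of GRF2 lay well above the highest intact WT library. GRF4 had 46.6, 45.7 and 45.1 CPM after decapitation, against 35.1, 33.0 and 35.1 CPM in intact WT (0.41 ± 0.045; edgeR adjusted p = 4.9e-09).

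GRF9 had 12.2, 12.2 and 11.9 CPM after decapitation, against 8.96, 9.39 and 8.99 CPM in intact WT, again without overlap (0.41 ± 0.082; edgeR adjusted p = 9e-05). GRF1 had 35.2, 33.4 and 34.6 CPM after decapitation, against 27.6, 28.1 and 28.4 CPM in intact WT (0.30 ± 0.046; edgeR adjusted p = 2.9e-06). GRF5 (0.27 ± 0.058) rose without overlap of libraries. GRF3 (0.25 ± 0.061) rose with overlap, since decapitated WT replicate 2 at 26.3 CPM lay below the highest intact WT library at 26.6 CPM.

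GIF1 had 78.9, 80.8 and 74.4 CPM after decapitation, against 63.3, 62.6 and 66.9 CPM in intact WT. Every decapitated WT library lay above every intact WT library (0.28 ± 0.039; edgeR adjusted p = 4e-07). GRF7 had 5.06, 3.86 and 5.71 CPM after decapitation, against 6.49, 6.86 and 6.82 CPM in intact WT. It was the member that fell, with more spread after decapitation than in intact WT (-0.47 ± 0.12; edgeR adjusted p = 0.0011). GRF8 had 3.67, 4.02 and 4.73 CPM after decapitation, against 4.63, 3.58 and 5.13 CPM in intact WT, and the groups overlapped (-0.10 ± 0.15).

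The counting could mix reads of genes that overlap, because no source used here says whether it used strand. GRF9 (TAIR10 chromosome 2, 18745249 to 18747634, plus strand) shares 126 exon bases, 6.5% of its exons, with AUR3 on the minus strand, an Aurora kinase gene of dividing cells looked up for this reason. AUR3 also rose after decapitation (0.74 ± 0.11; edgeR adjusted p = 8.4e-07), with 416 to 455 counts in decapitated WT libraries, against 238 to 284 counts in intact WT libraries, beside 582 to 693 counts for GRF9 in decapitated WT and 449 to 535 in intact WT. GRF7 (chromosome 5, 21794177 to 21796092, plus strand) shares 14.2% of its exon bases with AT5G08015, which held at most 2 counts in any library. GRF1 and GRF3 share 1.1% and 1.5% of theirs with other genes, and the other 6 members share none. Markers of dividing cells rose in 10 of 10 cases after decapitation, with sums of 545 to 556 CPM, against 224 to 231 CPM in intact WT, and green leaf markers fell in 8 of 8 cases, with sums of 22792 to 23931 CPM in decapitated WT, against 28439 to 28669 CPM in intact WT. Secondary wall markers fell in 6 of 6 cases, with sums of 80.9 to 86.7 CPM in decapitated WT, against 135 to 141 CPM in intact WT. Flower markers rose in 4 of 8 cases, with sums of 39.4 to 45.2 CPM in decapitated WT, against 35.1 to 36.2 CPM in intact WT. Of 6 root markers 2 rose and 4 were not tested. Of 8 axil boundary and meristem markers 1 rose and 2 fell, STM (-0.26) being among those that fell. The part of these lists in the GRF and GIF1 values was not tested.

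Decapitated WT was set directly against brc1-2, which tests whether the 2 groups differ from each other. Genotype and decapitation differ together here, so their parts cannot be told apart. The libraries are shared with the comparisons above, so the values are not independent of those. GIF1, GRF9, GRF4, GRF1 and GRF5 were higher in decapitated WT than in brc1-2, 5 of 10 against 24.4% of all genes tested. No member was lower by edgeR, DESeq2 or limma-voom, against 24.1% of all genes, and at an unadjusted p under 0.05 the count was 0 by edgeR and DESeq2 and 1 by limma-voom. GIF1 had 78.9, 80.8 and 74.4 CPM in decapitated WT, against 64.4, 63.6 and 65.7 CPM in brc1-2 (0.27 ± 0.039; edgeR adjusted p = 1e-06). GRF9 had 12.2, 12.2 and 11.9 CPM in decapitated WT, against 8.69, 9.41 and 10.5 CPM in brc1-2 (0.34 ± 0.082; edgeR adjusted p = 0.00097). In 5 genes, these included, every decapitated WT library lay above every brc1-2 library, against 27.2% of all genes, and in no member did every one lie below, against 27.3%. The gene that shares exon bases with GRF9, AUR3, was also higher in decapitated WT (0.57 ± 0.11; edgeR adjusted p = 5.7e-05). Its part in the GRF9 counts was not tested.

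GRF4 (0.20 ± 0.045; edgeR adjusted p = 4e-04) and GRF1 (0.19 ± 0.046; edgeR adjusted p = 0.00084) were higher by less. GRF5 passed narrowly (0.14 ± 0.058; edgeR adjusted p = 0.049), and its call ended in each fit that leaves out 1 library other than brc1-2 replicate 1, at adjusted p from 0.033 to 0.25, with a log2 change of 0.09 without brc1-2 replicate 2a. GRF2 did not pass, with a log2 change of 0.02 and a 95% interval from -0.10 to 0.13. GRF6 (0.17, interval from -0.09 to 0.43) and GRF3 (0.08, interval from -0.04 to 0.21) did not pass either. GRF7 (-0.24) and GRF8 (-0.29) had values below 0 without a call, and each passed as lower in 1 or 2 fits that leave out a library, GRF7 without decapitated WT replicate 3 and GRF8 without that library or without brc1-2 replicate 2b. GRF3 passed as higher without decapitated WT replicate 2 (0.17). Markers of dividing cells were higher in 10 of 10 cases, with sums of 545 to 556 CPM in decapitated WT, against 334 to 347 CPM in brc1-2, and flower markers were lower in 8 of 8 cases, with sums of 39.4 to 45.2 CPM in decapitated WT, against 69.8 to 72.5 CPM in brc1-2. Green leaf markers were lower in 8 of 8 cases, with sums of 22792 to 23931 CPM in decapitated WT, against 35589 to 35930 CPM in brc1-2. All 6 secondary wall markers were lower too, with sums of 80.9 to 86.7 CPM in decapitated WT, against 141 to 145 CPM in brc1-2. Their part was not tested.

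The partners and regulators of the family were read next, from a list of 20 genes. Like GIF1, GIF2 and GIF3 encode co-activators that bind GRF proteins. GIF2 had 38.5 CPM in decapitated WT, 36.4 CPM in brc1-2 and 38.4 CPM in intact WT on average. Per length it stood above GIF1 in intact WT, at 50.8 against 40.1 TPM, and in brc1-2, at 49.0 against 41.0 TPM. In decapitated WT the libraries of GIF2 and GIF1 overlapped, at means of 52.7 and 50.4 TPM. GIF2 passed in none of the 4 edgeR comparisons, with log2 changes from -0.08 to 0.08. GIF3 passed in none of them either, with values of -0.43 on rac-GR24 (edgeR adjusted p = 0.054), -0.20 in brc1-2 (edgeR adjusted p = 0.069) and -0.02 after decapitation.

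**Figure D4:**
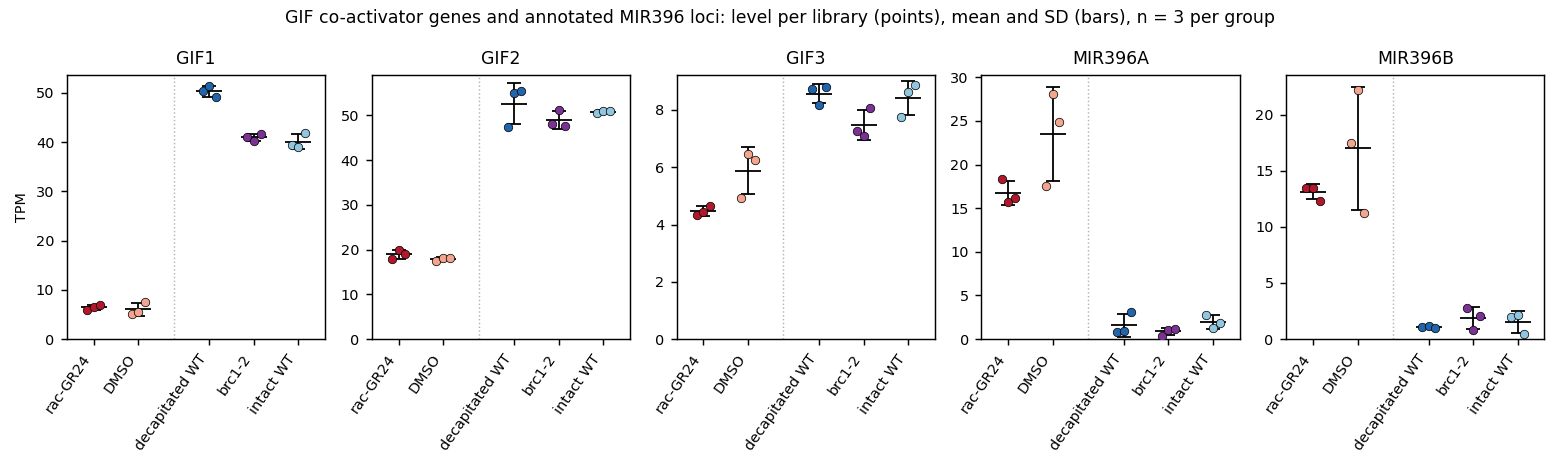
Level in TPM (vertical axis, from 0) of the 3 GIF genes and of the annotated MIR396A and MIR396B loci in the 5 groups; points are libraries and bars the mean with SD, n = 3. GIF1 lies higher in decapitated WT, at 50.4 TPM, than in brc1-2 at 41.0 TPM, and the MIR396 loci hold less in axillary tissue than in seedlings.

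The MIR396A and MIR396B loci, from which miR396 is cut, were read as counts on their annotated genes, which do not measure the mature microRNA. MIR396A held 50 to 70 counts on rac-GR24, 57 to 104 counts on DMSO, and 2 to 14 counts per axillary library. It did not pass on rac-GR24 (-0.52 ± 0.24; edgeR adjusted p = 0.15), and at its axillary counts no difference was detectable. MIR396B held 34 to 46 counts on rac-GR24, 42 to 58 counts on DMSO and 2 to 12 counts per axillary library, too few for a test there. In TPM, MIR396A had 1.97 in intact WT axils and 23.5 in DMSO seedlings, a ratio of 0.0838. The intact WT value rests on 7 to 14 counts per library. Tissue and batch label differ together in this ratio too, and no test was made.

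SYD, an ATPase of SWI/SNF complexes, had 157 CPM in brc1-2 and 59.3 CPM in intact WT on average (1.41 ± 0.052; edgeR adjusted p = 5.1e-19). The ATPase genes CHR23 (0.88) and BRM (0.54) and the core subunit gene SWI3C (0.54) also rose in brc1-2. After decapitation SYD (0.94), BRM (0.39), TCP10 (0.39) and CHR23 (0.59) rose. Of the 20 genes, 13 rose and 1 fell in brc1-2, against 30.4% of all genes tested that rose and 30.5% that fell. Their median log2 change was 0.22. MIR396B, 1 of the 20, was not tested in the axillary comparisons. After decapitation 10 of the 20 rose, with a median of 0.21, against 29.4% of all genes. Decapitated WT was lower than brc1-2 for SYD (-0.47), AT1G10120 (-0.37), a bHLH gene that is also a miR396 target, CHR23 (-0.29) and TCP4 (-0.19), and for 7 of the 20 genes in all, with 2 higher, against 24.1% of all genes lower and 24.4% higher.

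On rac-GR24, 6 of the 20 genes fell, with a median log2 change of -0.18, against 11.7% of all genes tested. They included the CIN-type TCP genes TCP2 (-0.59), TCP24 (-0.41) and TCP10 (-0.30), whose class restrains leaf cell division, and AT1G10120 (-0.36). TCP4, which activates MIR396 genes, was lower as well (-0.25) and higher in brc1-2 (0.40) and after decapitation (0.21).

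The last list held 20 genes of organ growth and reported GRF or GIF1 targets. On rac-GR24, 7 fell and 2 rose, with a median log2 change of -0.15, against 11.7% of all genes that fell and 12.4% that rose. CYCD3;2 (-0.41) and CYCD3;1 (-0.45), D-type cyclin genes, fell, as did ANT (-0.45), an AP2 factor of organ growth, and CRF2 (-0.64), a cytokinin response factor. In brc1-2, 4 of the 20 rose, 5 fell and 3 were not tested, with a median of -0.06. Neither share was above the 30.4% and 30.5% of all genes tested that rose and fell. CRF2 (0.43) and ANT (0.23) rose, and COL5 (-0.46), a CONSTANS-like gene, and KLU (-0.33), a cytochrome P450 gene that promotes organ growth, fell.

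After decapitation, 6 of these 20 rose, 6 fell and 3 were not tested, with a median of -0.06. Of all genes tested, a similar 29.4% rose and 33.5% fell. ANT (0.63) and CRF2 (0.68) rose, and ARGOS (-1.91), an auxin-induced organ size gene, and COL5 (-0.89) fell. ANT lies 11604 bases from GRF2 on chromosome 4, with 1 annotated gene between them. Decapitated WT was higher than brc1-2 for ANT (0.40) and the response regulator gene ARR4 (0.35) and lower for ARGOS (-1.47) and COL5 (-0.43), with 5 of the list higher and 4 lower in all, against 24.4% and 24.1% of all genes. PLT1, PLT2 and ORG3 had too few counts for a test in axils.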

How the data were processed

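Each of 2 tables deposited by the authors gives raw counts for every gene, with positions and exon lengths, per the file headers in featureCounts layout. Tools listed without settings in the submitters' processing notes are fastp 0.23.1, cutadapt 3.5, HISAT2 2.0.5, SAMtools 1.13 and featureCounts 2.0.1, with TAIR10 as the build. The seedling table ended in 1 incomplete line, which was left out, and lacked 609 genes of the other. Of counts from 1 to 20, 60.8% to 71.8% were even per library, so counts may not be independent fragments, and precision was taken from the spread between libraries. Replicate pairs differed beyond sampling noise (chi-square per degree of freedom 3.05 to 19.03).

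The main test was the quasi-likelihood test of edgeR 4.0.16 (R 4.3.3), after filterByExpr with a minimum count of 10 and a minimum total of 15, and TMM scaling. Adjustment was by Benjamini-Hochberg over all genes, with a threshold of 0.05. The 6 seedling libraries shared 1 fit and the 9 axillary libraries another. TPM was computed over the 32224 genes in both tables. Intervals are 95% intervals from the same test. Simulated data were used to check the calls of the test, not the intervals.

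The members and gene lists were chosen with earlier results of these data known. Named genes were the 10 members, BRC1, GIF2, GIF3, MIR396A, MIR396B and, per comparison, the 4 genes with the smallest p past the threshold in each of 2 lists, with the 5 genes most like GIF1. Values of TCP4, PLT1, PLT2, ORG3, WUS, STM, LAS, RAX1 and AUR3 given beyond this rule were chosen after they were seen. Gene symbols came from the TAIR10.1 RefSeq gene table. Alternatives were 2 other scalings, DESeq2 1.42.0, limma-voom (limma 3.58.1), 2 other filters, separate fits per pair of groups, a replicate block, halved counts and leaving out each library.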

Additional observations from a re-analysis of the deposited data

How the results depend on the processing

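Changes of GRF2, GRF4 and GRF6 that passed in brc1-2, of all 9 members called after decapitation, of GIF1, GRF1, GRF4 and GRF9 between decapitated WT and brc1-2, and of GRF3, GRF4 and GRF9 on rac-GR24 kept their direction and their call under every alternative run. GRF5 did not in brc1-2, where its call also ended with upper-quartile factors (adjusted p = 0.074), limma-voom (0.053) and no filter (0.058), nor between decapitated WT and brc1-2, where it ended with upper-quartile factors (0.058), a stricter filter (0.059) and halved counts (0.052), each within 0.013 to 0.074 over both comparisons' 8 settings. When only the groups compared were fitted, 1 member, GRF7, was lower in brc1-2 (adjusted p = 0.045, from 0.045 to 0.12 over 8 settings). Leaving out 1 library gave 3 to 5 members higher in brc1-2 and 0 to 2 members lower between decapitated WT and brc1-2. The cause was not tested.

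Values near 0 changed sign without a call: with upper-quartile factors GIF1 in brc1-2 was -0.01. Over the fits that leave out 1 library, rac-GR24 values ran from -0.05 to 0.22 for GIF1, -0.17 to 0.12 for GRF1 and -0.25 to 0.16 for GRF7. In brc1-2 they ran from -0.01 to 0.03 for GIF1 and -0.01 to 0.13 for GRF9. GRF8 ran from -0.24 to 0.01 after decapitation, and GRF2 from -0.04 to 0.05 between decapitated WT and brc1-2. Ratios of mean levels in TPM and in CPM differed by more than the replicate spread for 5 of 40 values and kept their direction. With the replicate number as a block, 0 members rose and 4 fell on rac-GR24, and 8 rose and 1 fell after decapitation. Pairing was read from the deviations of each gene from its group mean, not from whole profiles. In these deviations, same-numbered samples correlated at 0.13, -0.01 and -0.15 in seedlings and 0.03, 0.02 and 0.07 in axils. Not every sample correlated best with its own number. No pairing by number was seen, but 3 libraries per group are too few to exclude it. A block could not be fitted for brc1-2, since 2 columns carry 1 number. At 18 to 84 counts per seedling library, GRF6, GRF7 and GRF8 could show only large changes.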

Other observations

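Over the 9 axillary libraries, the genes whose log2(CPM + 1) followed GIF1 most closely among 18682 genes with a mean of at least 1 CPM were AT1G31910 (Pearson r = 0.9945), AT4G02450 (0.989), AT4G15770 (0.988), MAP2B (0.984), a methionine aminopeptidase gene, and AT4G27090 (0.983). These values describe 9 libraries in 3 groups, which share group means and depth. The 5 genes had log2 changes of 0.18 to 0.49 after decapitation and of -0.01 to 0.04 in brc1-2, beside 0.28 and 0.01 for GIF1. GRF9 stood nearest of the GRF genes, at rank 678 (r = 0.911).

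Among the members, GRF1 and GRF4 ran closest together over these libraries (r = 0.96), followed by GRF5 and GRF6 (0.94). GRF7 ran against GRF4 (-0.83) and GIF1 (-0.80), and GRF8 ran against GRF9 (-0.56) and GIF1 (-0.36), its highest value being 0.22, with GRF7.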
